A study of Rattus norvegicus with 30 samples.

Results

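DMF given at 30 µM for 24 h was compared with its DMSO vehicle over 6 RNA libraries of cultured rat hippocampal neurons, 3 of each group, among the 30 libraries of the study. The genes described are the protein_coding genes of that comparison. The table listed 18777 of them, and 13875 had enough reads to be tested. Hippocampi of Wistar rats at embryonic day 18 were grown for 7 days and then treated, and every culture, treated or control, carried the vehicle at 0.2%. The DMF_24h cultures received DMF for 24 h, the DMSO_24h cultures only the vehicle, and the MMF_24h cultures MMF at 30 µM for the same time. The DMF_4h and DMSO_4h cultures were the same treatments after 4 h. Each experiment was done 3 times, and libraries of the same number deviated together from their group means, so the libraries were treated as pairs.

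DMF is the dimethyl ester of fumaric acid, and MMF carries a methyl group on only a single end of the acid and is the product of DMF hydrolysis. DMF reacts with thiols such as the cysteines of Keap1, the protein that holds the transcription factor Nrf2 in check and marks it for degradation. Once released, Nrf2 binds antioxidant response elements with small Maf proteins and switches on genes for glutathione synthesis, quinone reduction, thioredoxin recycling and heme breakdown, a defence that neurons run at a low level and astrocytes at a higher one.

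The 6 libraries held between 15108132 and 24654091 reads on genes. Neuron genes were present in all 6, with Map2, a dendrite protein, at 19347 to 22052 normalized counts. The cultures also held other cells. Gfap of astrocytes stood at 16088 to 50393 normalized counts, and the list of oligodendrocyte precursor genes summed to between 51814 and 63634. Microglia were near absent by their genes: of 20 markers, 10 stayed under 10 normalized counts in all 6 libraries, P2ry12, Tmem119 and Cx3cr1 among them. In such bulk samples, fewer cells of a type and less RNA per cell cannot be told apart.

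After 24 h of DMF, 1800 genes passed an adjusted p of 0.05 in limma with the replicate number as a block, which was 13.0% of those tested. Of these, 810 were higher (5.84%) and 990 lower (7.14%). The change exceeded 1 on the log2 scale in 129 of the higher genes (0.930%) and 113 of the lower ones (0.814%). Without the block 554 genes passed (3.99%), 262 higher (1.89%) and 292 lower (2.10%), and all of them had also passed with it. Without the libraries numbered 2 the count was 375 (2.70%), 179 higher (1.29%) and 196 lower (1.41%). It was 1440 (10.2%) without those numbered 1 and 2864 (20.5%) without those numbered 3. The median log2 change of all genes was -0.01, and the DMF and DMSO values did not overlap for 3165 genes (22.8%). A list count below is given with the block, and its values without the block or without the libraries numbered 2 are added where they moved it by over 1.5 times.

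The genes that rose with the smallest p were enzymes of detoxification and NADPH supply. Nqo1, the quinone reductase at 35295573 to 35310557 of chromosome 19 in the mRatBN7.2 assembly, had 1456, 1307 and 1668 normalized counts with DMF and 308, 284 and 268 with DMSO. Every DMF library stood above every DMSO library, which the rule that named the gene required. The log2 change was 2.35 ± 0.09 (SE, n = 3 per group) with an adjusted p of 1.21e-06 in limma. Gstp1, a glutathione transferase at 201321672 to 201340226 of chromosome 1, had 3324, 3243 and 3526 with DMF against 1150, 1191 and 1094, a 2.94-fold rise that varied little among the 3 pairs. Gsta1, a transferase of the alpha class, went from 253, 163 and 147 to 1094, 839 and 875 normalized counts. Me1, the cytosolic malic enzyme that makes NADPH, had 3596, 3156 and 2554 against 1704, 1359 and 1264, and its log2 change was 1.10 ± 0.06.

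Aox1, the aldehyde oxidase, had 2330, 2172 and 949 normalized counts with DMF and 447, 390 and 259 with DMSO. The libraries numbered 3 were the lowest of both groups for Aox1, and its log2 change was 2.24 ± 0.10. Ddit4l, an inhibitor of mTOR signalling, rose 11.4-fold, from 55.6, 31.6 and 47.2 to 432, 520 and 588. The 3 DMF libraries lay far from the 3 DMSO libraries, and the rule that named the gene required that the groups not overlap.

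Of 23 tested Nrf2 pathway genes, 16 rose and 1 fell, with a median log2 change of 0.43. The exception was Idh1, an NADP-dependent isocitrate dehydrogenase, with a log2 change of -0.32 ± 0.05. The small members changed too: Txn1, the cytosolic thioredoxin, by 0.43 ± 0.06, Prdx1, a peroxiredoxin, by 0.56 ± 0.06, and Gclc, the catalytic subunit of the enzyme that starts glutathione synthesis, by 0.74 ± 0.06. Its partner subunit Gclm had a log2 change of 0.16 with an adjusted p of 0.281, and its groups overlapped, with 381, 365 and 427 normalized counts against 326, 366 and 354. Ftl1, a ferritin light chain whose copies in the genome are alike enough to share reads, had a log2 change of 0.39 ± 0.06 that did not pass without the libraries numbered 2.

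In the list of Nrf2 and its regulators, which also holds the Nrf2 target Osgin1, 5 of 10 genes rose and none fell. Nfe2l2, which encodes Nrf2, had 438, 452 and 439 normalized counts with DMF and 246, 270 and 173 with DMSO, and the groups did not overlap. Sqstm1, the p62 adaptor that binds Keap1, rose from 7663, 8601 and 7934 to 11235, 15462 and 14879. Mafg, a small Maf partner, rose by 0.30 ± 0.05 on the log2 scale. Keap1 itself had 1304, 1554 and 1517 against 1288, 1356 and 1407, a log2 change of 0.11 with an adjusted p of 0.285.

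In the wider list of drug conjugation and quinone reduction, 10 of 32 rose and none fell. Abcb1b, a P-glycoprotein efflux pump of the plasma membrane, had 244, 297 and 371 normalized counts with DMF against 58.8, 64.0 and 49.7. Its DMF values were 5.16-fold higher, with an adjusted p of 4.20e-05. Its near copy Abcb1a was less abundant, with 16.4, 16.3 and 85.0 against 4.36, 2.56 and 9.94, and reads of the pair may be shared. Ephx1, the microsomal epoxide hydrolase, rose from 360, 282 and 349 to 956, 1001 and 646. Transferases of the mu class did not move in step: Gstm1 changed by 0.13, Gstm2 by 0.04 and Gstm5 by -0.09, and none of these passed the test. Of 23 thioredoxin and peroxiredoxin genes 8 rose, of 19 genes of glutathione synthesis and cystine import 5 rose, and none of either list fell. Among thioredoxin genes 5 rose without the libraries numbered 2.

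**Figure D1:**
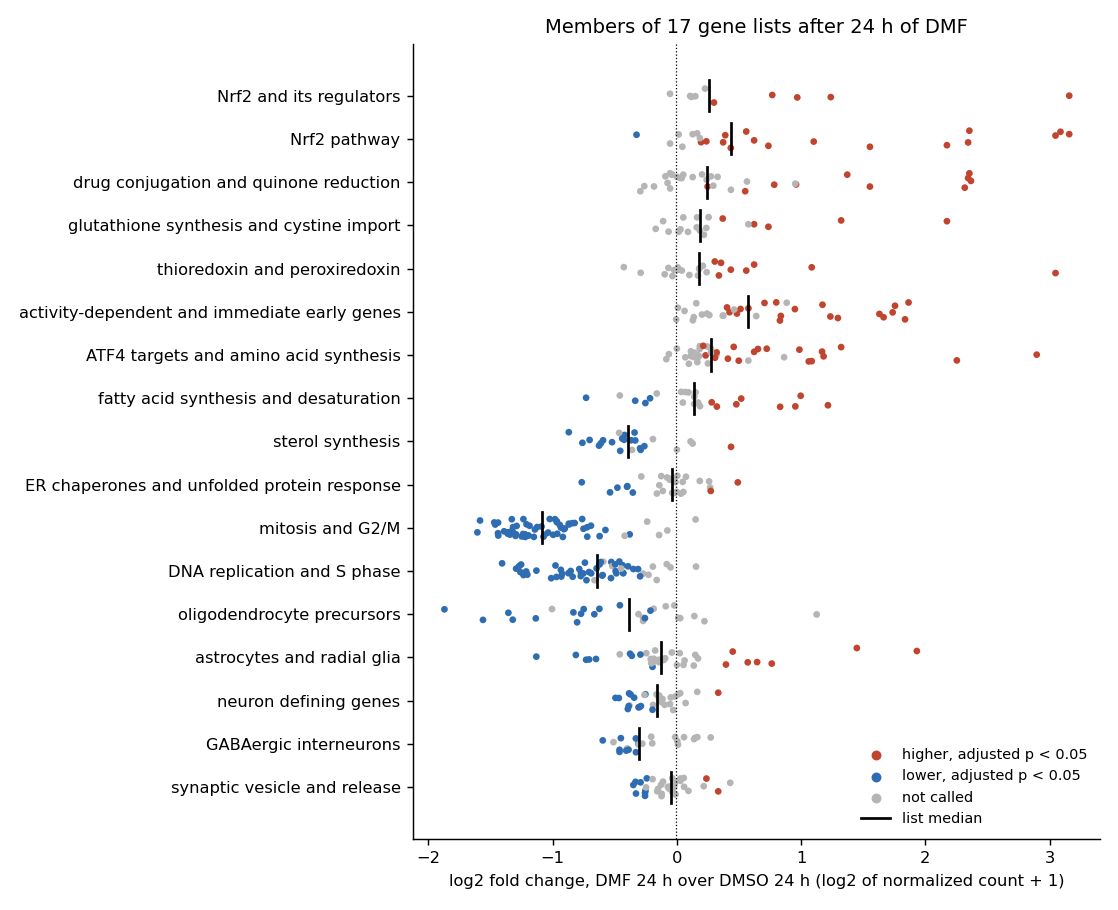
Log2 change of each tested member of 17 gene lists after 24 h of DMF, on the log2 scale of the normalized count plus 1, with red and blue points for members that passed the test, grey points for the others, a black bar at each list's median and a dotted line at the median of all genes. The Nrf2 pathway has its median at 0.43, mitosis at -1.09 and the synaptic vesicle list at -0.05.

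Several stress genes rose in all 3 pairs by very different amounts. Hmox1, the heme oxygenase that opens the heme ring, had 1014, 1649 and 3618 normalized counts with DMF and 220, 261 and 169 with DMSO. The DMF libraries lay farther apart than the DMSO libraries. Srxn1, the sulfiredoxin that repairs peroxiredoxins, had 132, 240 and 425 against 31.6, 30.7 and 22.4. Slc7a11, the cystine transporter, had 505, 490 and 1297 against 171, 182 and 111. Osgin1, an Nrf2 target linked to growth arrest, had 71.7, 79.3 and 174 against 14.2, 7.68 and 9.94. The DMF library numbered 3 was the highest of the 6 for each of these genes. The highest DMF value was 3.57 times the lowest for Hmox1 and 3.21 times for Srxn1, while it was 1.28 times for Nqo1 and 1.09 times for Gstp1. What set that library apart was not tested.

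**Figure D2:**
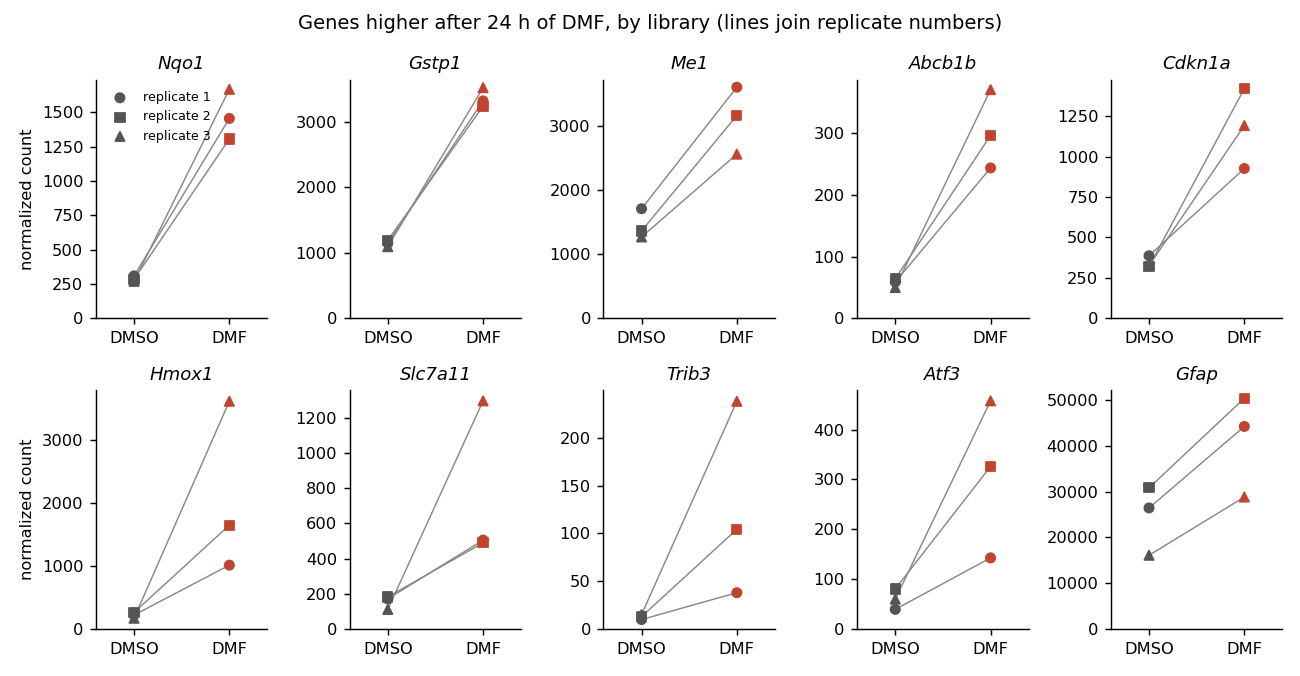
Normalized counts of 10 genes that were higher after 24 h of DMF, with grey points for the 3 DMSO libraries, red points for the 3 DMF libraries and lines that join libraries of the same number; each axis starts at 0. Gstp1 and Nqo1 rose alike in the 3 pairs, whereas Hmox1 reached 3618 in pair 3 and 1014 in pair 1, and the groups of Gfap overlap although each pair rose.

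Windows around transcription starts show the letters that Nrf2 binds in some of these genes. RefSeq windows of 250 bases before to 50 after each start (GRCr8 assembly) were matched by symbol to 10736 of the tested genes, and 7 motifs were searched on either strand. The core of the antioxidant response element, TGACNNNGC, was found in 7 of 18 Nrf2 pathway genes with a window, in 21.6% of the genes that rose by over 1 on the log2 scale, in 15 of 88 of those that fell as far, in 15.5% of tested genes and in 13.1% of all 27457 genes with a window. It was in 1 of 9 genes of the list of Nrf2 and its regulators (11.1%) and 2 of 15 glutathione genes (13.3%). The core was not particular to the Nrf2 pathway. Among other lists its share ran from 0 of 23 receptor subunits to 5 of 11 metallothionein and zinc exporter genes (45.5%), with 10 of 35 ATF4 targets (28.6%). Gstp1, Gsta1 and Me1 are shown because they were among the genes with the smallest p and hold the core, which is in capitals. In Gsta1 the core begins 30 bases after the start, and in Gstp1 and Me1 it lies before the start. The Gstp1 window is chr1:210769656-210769955 on the minus strand, that of Gsta1 chr9:31216483-31216782 on the minus strand, and that of Me1 chr8:96540195-96540494 on the minus strand.
Gstp1: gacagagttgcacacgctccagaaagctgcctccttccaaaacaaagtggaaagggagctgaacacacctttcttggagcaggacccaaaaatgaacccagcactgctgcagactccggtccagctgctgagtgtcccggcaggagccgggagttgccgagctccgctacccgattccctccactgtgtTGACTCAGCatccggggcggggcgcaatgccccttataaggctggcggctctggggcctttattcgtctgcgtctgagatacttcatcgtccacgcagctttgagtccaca
Gsta1: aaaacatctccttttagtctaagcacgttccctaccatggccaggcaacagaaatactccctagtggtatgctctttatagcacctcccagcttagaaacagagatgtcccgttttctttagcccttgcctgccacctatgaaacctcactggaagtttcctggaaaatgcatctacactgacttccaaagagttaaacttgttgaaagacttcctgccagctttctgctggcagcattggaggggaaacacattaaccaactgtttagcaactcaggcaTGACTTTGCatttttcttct
Me1: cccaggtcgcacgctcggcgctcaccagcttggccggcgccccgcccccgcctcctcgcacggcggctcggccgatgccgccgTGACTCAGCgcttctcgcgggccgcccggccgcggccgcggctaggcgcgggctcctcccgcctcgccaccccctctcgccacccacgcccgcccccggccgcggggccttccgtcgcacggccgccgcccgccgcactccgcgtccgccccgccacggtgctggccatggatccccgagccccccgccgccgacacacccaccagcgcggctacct
A match of these letters is a description of the reference sequence, and binding was not measured.

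The genes that fell were led by those of cell division. Of 63 tested mitosis genes, 58 fell and none rose, and their median log2 change was -1.09. Top2a, the topoisomerase of dividing cells, had 538, 425 and 513 normalized counts with DMF and 1470, 1270 and 1337 with DMSO, a 2.77-fold fall with an adjusted p of 2.93e-06. Mki67, the proliferation marker, had 596, 462 and 513 against 1131, 1020 and 1058. Cenpf, a kinetochore protein, had 220, 203 and 212 against 530, 472 and 500, and Iqgap3, a scaffold of proliferating cells, had 87.1, 83.7 and 83.5 against 274, 253 and 254. No DMF library reached a DMSO library for any of the 4 genes, which the rule that named them required. The 5 mitosis genes that did not pass were Anln, Cdc25b, Cdc25c, Spag5 and Ncapg. The list kept 56 falls without the block and 51 without the libraries numbered 2.

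Replication genes fell less far. Of 55 tested, 44 fell and none rose, with a median of -0.65. Without the block 27 fell, and without the libraries numbered 2 it was 17. Rrm2, a subunit of ribonucleotide reductase, had 162, 143 and 167 normalized counts against 398, 397 and 365, and Tk1, the thymidine kinase of S phase, had 187, 173 and 196 against 396, 438 and 387. Clspn and Mcm5, which act at the replication fork, fell by 1.27 and 0.97 on the log2 scale. Pcna, the clamp of the replicating polymerase, fell by 0.43.

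**Figure D3:**
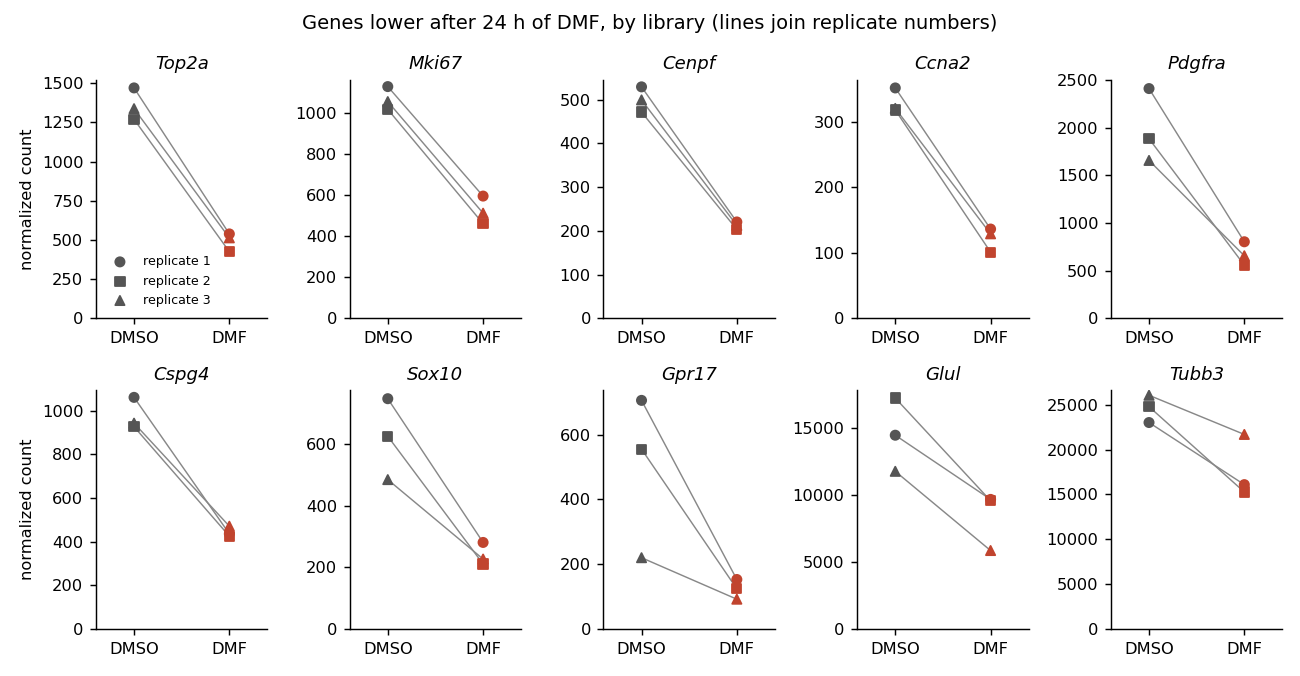
Normalized counts of 10 genes that were lower after 24 h of DMF, with grey points for the 3 DMSO libraries, red points for the 3 DMF libraries and lines that join libraries of the same number; each axis starts at 0. All 10 genes separate the groups fully, and Gpr17 shows its lowest DMSO value, 220, in the library numbered 3.

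Of the motifs searched, 2 were present in most of the mitosis promoters. The list and the motifs were chosen with earlier results of these data known, so the shares describe these promoters and are no independent support. TTTGAA, the cell cycle homology region through which the DREAM complex holds late cell cycle genes silent in resting cells, was present in 36 of 54 mitosis genes with a window (66.7%), against 12.5% of tested genes and 19.4% of all genes. It was found in 5 of 44 replication genes (11.4%). The CCAAT box, bound by NF-Y, was in 39 of the 54 (72.2%) and in 39.1% of tested genes. It was also in 20 of 23 endoplasmic reticulum chaperones (87.0%), 14 of 17 sterol genes (82.4%), 14 of 19 fatty acid genes (73.7%) and 27 of 44 replication genes (61.4%). Among genes that fell by over 1 on the log2 scale 42.0% held TTTGAA, and among those that rose as far it was 12.4%. The genes that fell as far include members of the mitosis list, such as Top2a and Cenpf, so this is not a separate observation. Top2a (chr10:84473044-84473343, minus strand), Cenpf (chr13:103760837-103761136, minus strand) and Mki67 (chr1:199952544-199952843, minus strand) are shown with both motifs in capitals. In Mki67 a CCAAT match overlaps a TTTGAA match.
Top2a: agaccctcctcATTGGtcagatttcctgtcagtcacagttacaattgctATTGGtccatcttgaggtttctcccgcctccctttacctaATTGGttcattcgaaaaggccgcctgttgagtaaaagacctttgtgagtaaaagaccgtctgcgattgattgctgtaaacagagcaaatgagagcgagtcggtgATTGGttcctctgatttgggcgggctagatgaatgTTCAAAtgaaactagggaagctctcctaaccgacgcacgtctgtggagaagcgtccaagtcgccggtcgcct
Cenpf: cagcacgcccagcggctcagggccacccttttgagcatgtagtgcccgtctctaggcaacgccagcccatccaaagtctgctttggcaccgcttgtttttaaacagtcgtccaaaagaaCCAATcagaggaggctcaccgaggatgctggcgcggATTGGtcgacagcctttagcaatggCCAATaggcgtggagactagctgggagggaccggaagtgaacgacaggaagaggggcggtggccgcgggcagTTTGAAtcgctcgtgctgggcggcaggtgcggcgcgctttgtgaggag
Mki67: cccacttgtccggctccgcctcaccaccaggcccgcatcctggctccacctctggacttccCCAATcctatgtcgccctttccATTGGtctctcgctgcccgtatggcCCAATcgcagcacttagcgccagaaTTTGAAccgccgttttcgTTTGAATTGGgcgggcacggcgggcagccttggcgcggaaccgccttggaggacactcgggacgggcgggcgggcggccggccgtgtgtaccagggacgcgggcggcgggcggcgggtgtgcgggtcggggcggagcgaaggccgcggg
In Cenpf the TTTGAA match lies just after the start. Matches on the other strand read as TTCAAA and ATTGG here.

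Oligodendrocyte precursor genes also fell at 24 h. Of 26 tested, 14 fell and none rose, with a median of -0.38. Pdgfra, the growth factor receptor of these cells, had 803, 557 and 656 normalized counts with DMF and 2414, 1887 and 1658 with DMSO, 2.95-fold lower. Cspg4, the NG2 proteoglycan, had 436, 425 and 470 against 1060, 926 and 942. Sox10, the lineage transcription factor, had 281, 211 and 227 against 748, 625 and 485. The groups were separate for all 3 genes, which the rule that named them required. Gpr17, a receptor of precursors that have begun to differentiate, fell by 1.87 ± 0.17 on the log2 scale, and Erbb3, a neuregulin receptor, fell by the same 1.87 ± 0.21. Olig2 had a log2 change of -0.27 with an adjusted p of 0.127. Olig1 had 7221, 9904 and 9715 against 9354, 9087 and 7991, a log2 change of 0.01. At 4 h, when no mitosis gene passed as lower, 9 of 25 tested precursor genes were lower than DMSO and 1 higher. None of them passed without the block. Pdgfra had a log2 change of -0.64 at 4 h. Erbb3, which is not in the list, had 18.2, 23.5 and 16.7 normalized counts at 4 h against 84.0, 66.6 and 44.4. Its log2 change of -1.66 passed with and without the block. At 24 h the precursor list had 9 falls without the libraries numbered 2. Its summed level was 51814 to 54921 normalized counts with DMF and 56513 to 63634 with DMSO, that of the astrocyte list 166407 to 296612 and 178342 to 289039, and that of the neuron list 213265 to 249773 and 241017 to 271775. The part of cell composition in the fall of the division genes was not tested.

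Of 16 myelin genes 7 were tested. Mag, Mobp and Opalin stayed under 10 normalized counts in all 6 libraries, and 2 fell with the block and none without it. Mbp, a main myelin protein, had 353, 267 and 246 against 350, 287 and 290.

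Astrocyte and radial glia genes split. Of 36 tested, 7 rose and 9 fell, and without the block it was 2 and 4. It was 3 and 6 without the libraries numbered 2. Gfap, the astrocyte filament protein, had 44234, 50393 and 28811 with DMF and 26433, 30820 and 16088 with DMSO, so the groups overlapped while each pair rose. Its log2 change was 0.76 ± 0.05, with an adjusted p of 4.17e-05 that became 0.163 without the block. Glul, the glutamine synthetase that clears glutamate, had 9692, 9593 and 5865 against 14496, 17277 and 11794, and its adjusted p went from 0.000130 to 0.0641. Fabp7, a fatty acid binding protein of radial glia, fell by 0.73 ± 0.06, and Id1, a target of BMP signalling, rose from 93.7, 93.0 and 87.0 to 240, 267 and 246. Hes5, a Notch target, had 105, 117 and 110 against 258, 271 and 205. The library numbered 3 was the lowest of its group for Gfap and Glul, with DMF and with DMSO.

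Neuron genes moved little. Of 31 neuron defining genes 12 fell and 1 rose, with a median of -0.16. Without the block none passed, and without the libraries numbered 2 it was 1. Tubb3, the neuronal tubulin, had 16085, 15258 and 21680 normalized counts with DMF and 23009, 24776 and 26047 with DMSO, a log2 change of -0.49 ± 0.07. The DMF library numbered 3 stood nearest to the controls. Nefm and Gap43, of the axon, changed by -0.47 ± 0.06 and -0.31 ± 0.05. Map2 had a log2 change of -0.03, and Rbfox3, the NeuN antigen, -0.19 with an adjusted p of 0.0724. Of 23 interneuron genes 9 fell with the block, 3 without it and 1 without the libraries numbered 2. Cck, a neuropeptide, fell by 0.60 ± 0.07, whereas Gad2, a GABA synthesizing enzyme, had a log2 change of 0.01.

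Among 36 glutamate and GABA receptor subunits 9 fell and none rose, without the block it was 4, and without the libraries numbered 2 it was 2. Grin3a, an NMDA receptor subunit, had 178, 166 and 302 normalized counts against 424, 460 and 471. Gria3, an AMPA receptor subunit, had 564, 477 and 545 against 839, 878 and 919. Both sets were separate between the groups. Of 53 voltage-gated channel genes 4 rose and 5 fell, and without the block 2 rose and 1 fell. Cacna1g, a T-type calcium channel, fell by 0.77 ± 0.07. In the synaptic vesicle list 2 of 37 rose and 8 fell with the block, and none passed without it.

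Genes that neurons switch on with activity were higher at 24 h. Of 33 tested activity-dependent and immediate early genes, 19 rose and none fell, with a median of 0.58, and 11 rose without the block or without the libraries numbered 2. Rgs4, which shortens G protein signalling, had 3211, 3801 and 2853 normalized counts with DMF and 863, 1079 and 1172 with DMSO. Nptx2, a secreted synaptic pentraxin, had 1290, 1521 and 907 against 517, 529 and 438, and Jun, a subunit of AP-1, had 3591, 5721 and 4073 against 2243, 2365 and 2184. DMF and DMSO values did not overlap for any of the 3, which the rule that named Rgs4 required. Vgf, a neuropeptide precursor, rose by 0.80 ± 0.06. Egr1, a transcription factor of early response, had 1791, 2318 and 1428 against 555, 515 and 696. Npas4, which responds to calcium entry, had 740, 75.0 and 65.2 against 59.9, 34.1 and 46.0, so that its size of change rested on 1 library. TGACGTCA, the cyclic AMP response element, was in 5 of 26 genes of this list with a window (19.2%) and in 3.24% of tested genes. Among genes that rose by over 1 on the log2 scale it was in 2 of 97 (2.06%).

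Of 41 targets of ATF4 and genes of amino acid synthesis, 18 rose and none fell, with a median of 0.27, and without the block 9 rose. Without the libraries numbered 2 it was 10, and without those numbered 1 it was 28. Chac1, a glutathione-degrading enzyme, had 404, 579 and 571 normalized counts against 214, 192 and 206. Atf3, a stress transcription factor, had 142, 326 and 457 against 39.2, 80.2 and 59.7. Trib3, a pseudokinase of the stress response, had 37.9, 104 and 238 against 9.81, 12.8 and 14.9. The DMF library numbered 1 was the lowest of its group for each of these genes. Sesn2 and Slc7a3, a stress sestrin and a cationic amino acid carrier, rose by 1.09 ± 0.11 and 1.06 ± 0.11 on the log2 scale. TGATGCAA, the core of the composite element that ATF4 binds, was in 10 of 35 genes of the list (28.6%). Its share was 0.624% of tested genes and 1.03% of genes that rose by over 1 on the log2 scale (1 of 97). The list was drawn up from ATF4 targets, so its share is no independent support. Chac1 (chr3:126795881-126796180, plus strand) is shown with the core in capitals.
Chac1: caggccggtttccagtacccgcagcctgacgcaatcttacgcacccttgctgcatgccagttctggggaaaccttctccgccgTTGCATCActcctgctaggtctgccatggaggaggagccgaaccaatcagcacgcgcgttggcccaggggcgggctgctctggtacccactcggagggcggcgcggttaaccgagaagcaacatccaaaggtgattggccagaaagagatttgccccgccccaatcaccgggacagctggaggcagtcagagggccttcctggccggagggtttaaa

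Some chaperones of the endoplasmic reticulum were lower. Of 29 tested, 6 fell and 2 rose with the block, 3 fell without it and 1 fell without the libraries numbered 2, with a median of -0.04. Calr, a calcium-binding chaperone, had 6040, 6022 and 7336 normalized counts with DMF and 8883, 9525 and 9641 with DMSO. Hsp90b1, the HSP90 of the compartment, had 4702, 4253 and 5661 against 6557, 6839 and 6822. The groups were separate for both, and the DMF library numbered 3 was the nearest to the controls. Pdia6 and Pdia4, protein disulfide isomerases, changed by -0.35 ± 0.06 and -0.40 ± 0.07. The ER stress response element was in 9 of 23 genes of this list with a window (39.1%) and in 0.158% of tested genes. Among genes that fell by over 1 on the log2 scale it was in 0 of 88. Calr (chr19:40213117-40213416, plus strand) and Hsp90b1 (chr7:23012244-23012543, minus strand) are shown with the element in capitals.
Calr: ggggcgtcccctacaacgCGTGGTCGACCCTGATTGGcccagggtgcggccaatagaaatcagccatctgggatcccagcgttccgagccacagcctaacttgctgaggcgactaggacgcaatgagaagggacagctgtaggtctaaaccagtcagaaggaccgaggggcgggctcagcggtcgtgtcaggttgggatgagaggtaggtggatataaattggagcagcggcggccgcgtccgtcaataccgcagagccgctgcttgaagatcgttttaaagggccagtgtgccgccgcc
Hsp90b1: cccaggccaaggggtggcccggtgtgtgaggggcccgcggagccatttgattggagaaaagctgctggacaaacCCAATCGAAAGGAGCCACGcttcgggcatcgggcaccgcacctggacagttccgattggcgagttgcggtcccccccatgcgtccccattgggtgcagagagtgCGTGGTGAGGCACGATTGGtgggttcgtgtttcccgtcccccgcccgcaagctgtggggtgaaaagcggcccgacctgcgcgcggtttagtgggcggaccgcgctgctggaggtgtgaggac

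Lipid genes divided by pathway. Of 24 sterol synthesis genes 17 fell and 1, Insig1, rose, with a median of -0.39. Without the block 11 fell, and without the libraries numbered 2 it was 5. Hmgcs1, the HMG-CoA synthase, had 16880, 15554 and 16869 normalized counts against 24237, 27865 and 24101, and Stard4, a sterol carrier, had 305, 298 and 360 against 619, 650 and 497. Both fell in every pair with no overlap. Of 23 fatty acid genes 8 rose and 4 fell, without the block 6 rose and 1 fell, and without the libraries numbered 2 it was 4 and 1. Fasn, the fatty acid synthase, had 26927, 32910 and 28657 against 16736, 16696 and 16118. Scd, the stearoyl-CoA desaturase, had 10989, 12457 and 11763 against 5325, 6655 and 6245, and Srebf1, the transcription factor that drives these genes, had 4154, 6029 and 6038 against 2282, 2710 and 1948. The 3 genes were higher in every DMF library than in any DMSO library, which the rule that named Scd required. Abca6, a lipid transporter, rose from 6.54, 8.53 and 24.9 to 59.4, 68.4 and 67.5. The sterol regulatory element was in none of 17 sterol genes with a window and in 0.102% of tested genes.

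Cdkn1a, Fas and Eda2r were also higher after 24 h of DMF. Cdkn1a, the p21 inhibitor of cyclin-dependent kinases, had 927, 1422 and 1193 normalized counts with DMF and 387, 320 and 326 with DMSO. Fas, a death receptor, had 156, 171 and 108 against 57.8, 31.6 and 34.8, and Eda2r, a TNF receptor family member, had 200, 244 and 150 against 73.0, 52.9 and 67.1. All DMF values of the 3 genes exceeded all DMSO values.

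Other stress lists gave fewer calls. Of 27 heat shock genes 5 rose and 2 fell, 3 rose without the block and 1 passed without the libraries numbered 2, and Hspb8, a small heat shock protein, had 496, 500 and 397 normalized counts against 209, 185 and 133. Of 13 metallothionein and zinc exporter genes 3 rose, 1 of them without the block, and Mt1 had 397, 465 and 301 against 183, 292 and 145, so that the groups lay just apart, and it did not pass without the block (adjusted p of 0.0788). Of 31 autophagy genes 7 rose, Sqstm1 with the smallest p, and without the block 2 rose. Of 22 tested NF-kB and inflammatory genes 7 rose, 2 did so without the block and 1 without the libraries numbered 2, while Il1b, Tnf and Hcar2, a receptor at which MMF acts, were listed at 0 in all 6 libraries. Of 15 genes of heme and iron handling 5 rose and 1 fell, and 3 rose without the block. Of 14 NADPH genes 3 rose and 3 fell, and without the block 1 rose and 2 fell. Of 37 proteasome subunits 1 rose, of 24 glycolysis genes 1 rose and 3 fell, and of 13 genes of the mitochondrial genome 1 fell. None of these last 3 lists had a call without the block.

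MMF at the same dose and time allowed a direct comparison of the pair of esters, which differ by a methyl group on an acid end. Between DMF_24h and MMF_24h, 1737 of 14123 genes passed (12.3%), with 702 higher with DMF (4.97%) and 1035 lower (7.33%), and 505 passed without the block (3.58%), 203 higher (1.44%) and 302 lower (2.14%). Without the libraries numbered 2 the count was 890 (6.29%), and without those numbered 3 it was 2734 (19.3%). Against the same DMSO libraries MMF had 195 calls of 14038 (1.39%), 171 higher (1.22%) and 24 lower (0.171%), and 1 without the block (0.00712%). The DMF and MMF changes over DMSO share those control libraries.

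In the Nrf2 pathway 14 of 23 genes were higher with DMF than with MMF and 1 was lower, and without the block it was 7 and 1. Nqo1 had 1610, 1445 and 1841 normalized counts with DMF and 676, 670 and 536 with MMF on the scale of their shared table. The DMF level was higher by 1.38 on the log2 scale (95% interval 1.13 to 1.63), with an adjusted p of 5.90e-05. The differences were 0.89 (0.74 to 1.04) for Gstp1, 1.01 (0.79 to 1.23) for Gsta1 and 1.05 (0.89 to 1.22) for Aox1. Without the block the Aox1 difference did not pass in limma (adjusted p of 0.183). MMF alone raised these 4 genes over DMSO with the block, by 0.97, 0.66, 1.34 and 1.19 on the log2 scale. Without the block only the MMF rise of Gstp1 passed in limma (adjusted p of 0.0454). It was 0.0695 for Nqo1, 0.714 for Gsta1 and 0.952 for Aox1. Hmox1 was higher with DMF by 1.97 (1.19 to 2.75) and Txn1 by 0.21 (0.08 to 0.34).

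Other genes rose with DMF and had MMF values close to the vehicle. Rgs4 had 3549, 4202 and 3149 normalized counts with DMF and 905, 1188 and 1116 with MMF, a difference of 1.76 (1.58 to 1.95). Lpcat1, an acyltransferase of phospholipid remodelling, had 3158, 4349 and 3013 against 1329, 1384 and 1415. Arid5a, an RNA-binding protein that stabilizes inflammatory messages, had 763, 1230 and 698 against 231, 337 and 255. No MMF library reached the DMF range in these genes, which the rule that named them required. Cdkn1a differed by 1.90 (1.60 to 2.19), Fasn by 0.98 (0.84 to 1.12) and Abcb1b by 2.18 (1.83 to 2.53). Against DMSO the MMF changes of these 6 genes lay between -0.15 and 0.19 and none passed the test.

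The division genes separated the esters as they separated DMF from the vehicle. Of 63 mitosis genes, 59 were lower with DMF than with MMF and none higher, with a median difference of -1.30. Top2a had 595, 470 and 566 normalized counts with DMF and 1786, 1634 and 1758 with MMF, and Ccna2, the cyclin of S and G2 phase, had 151, 112 and 142 against 462, 412 and 464. Cdc20, the activator of the anaphase complex, had 230, 225 and 237 against 655, 650 and 597. The esters did not overlap for any of the 3, which the rule that named them required. With MMF, Top2a was higher than with DMSO by 0.20 on the log2 scale, with an adjusted p of 0.0497 in limma with the block. Mfap4, a microfibril protein, was lower with DMF than with MMF by 1.35 (interval of the log2 difference -1.54 to -1.17), and Pdgfra differed by -1.33 (-1.53 to -1.13). Of 33 activity-dependent genes 20 were higher with DMF than with MMF and none lower, and 9 were higher without the block.

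For some genes no difference between the esters was found. Mt2A, a metallothionein, had 1278, 1592 and 1020 normalized counts with DMF and 1349, 1672 and 811 with MMF, a difference of 0.06 with an interval of -0.13 to 0.25. Irf1, an interferon-response transcription factor, had 198, 223 and 197 against 202, 208 and 174, a difference of 0.08 (-0.16 to 0.33). Fn1, fibronectin, differed by -0.04 (-0.37 to 0.29). Id1 had 265, 295 and 271 with DMF and 215, 281 and 92.4 with MMF, a difference of 0.64 (0.13 to 1.15) with an adjusted p of 0.103. The intervals bound the difference for these genes and do not show that the esters act alike.

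**Figure D4:**
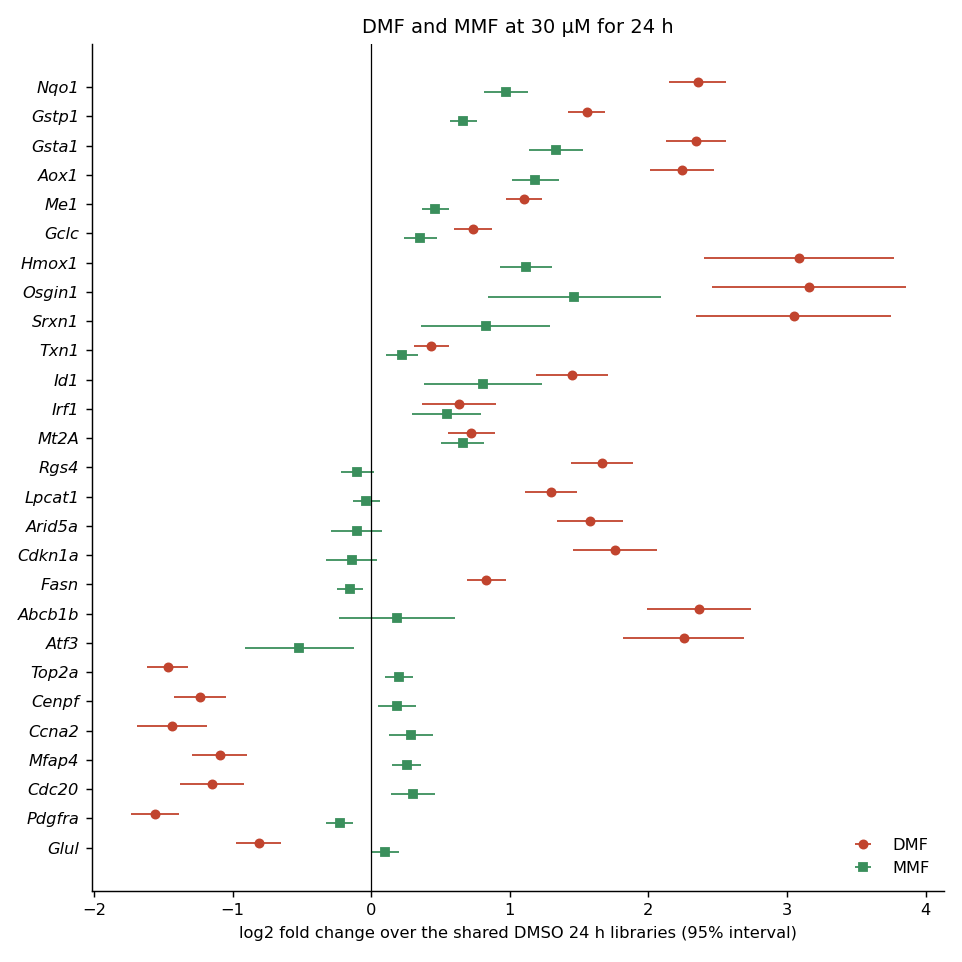
Log2 change over the shared DMSO libraries of 27 genes after 24 h of DMF (red circles) and MMF (green squares), with 95% intervals. For the Nrf2 targets at the top both esters lie right of 0 with DMF farther, and from Rgs4 to Glul the MMF values lie between -0.52 and 0.30 while the DMF values lie on either side.

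The DMF effect at 24 h was also set against that at 4 h, as the difference of the DMF to DMSO log2 ratios. It differed for 1896 of 14297 genes (13.3%), higher at 24 h for 900 (6.30%) and lower for 996 (6.97%), and for 591 without the block (4.13%), 258 higher (1.80%) and 333 lower (2.33%). Without the libraries numbered 2 it was 554 (3.86%), and without those numbered 3 it was 669 (4.65%). At 4 h itself 3262 of 14085 genes passed (23.2%), 1625 higher (11.5%) and 1637 lower (11.6%), and 481 without the block (3.41%), 261 higher (1.85%) and 220 lower (1.56%).

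Some Nrf2 targets grew with time and others did not. Nqo1 rose by 0.65 on the log2 scale at 4 h and by 2.35 at 24 h, a difference of 1.71 ± 0.25 with an adjusted p of 0.000588. Gstp1 and Me1 grew by 1.24 ± 0.13 and 0.84 ± 0.08. Hmox1 at 4 h had 6758, 6350 and 2940 normalized counts with DMF and 453, 381 and 210 with DMSO, a log2 change of 3.92, and its difference of -0.83 ± 0.55 had an adjusted p of 0.35. Gclc had changes of 0.67 and 0.74 at the earlier and the later time. Of the 23 Nrf2 pathway genes 7 had a higher effect at 24 h and 1 a lower one, and 2 were higher without the block.

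No mitosis gene passed as lower at 4 h. Of 63 tested, 20 were higher than DMSO at 4 h with the block and none without it, and 57 had a lower effect at 24 h than at 4 h (53 without the block), with a median difference of -1.28. Top2a at 4 h had 2409, 2196 and 1924 normalized counts with DMF and 2024, 1574 and 1655 with DMSO, and its effect differed by -1.79 ± 0.11 between the times. Mki67 and Aspm, a spindle pole protein, differed by -1.26 ± 0.09 and -1.31 ± 0.09. Arhgap11a differed by -1.47 ± 0.11. Each of the 4 genes had a change above 0 at 4 h and below 0 at 24 h. Of 55 replication genes, 5 were lower and 3 higher at 4 h, none of them without the block, and 30 had a lower effect at 24 h (12 without the block).

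Other lists also differed between the times. Of 33 activity-dependent genes 23 were lower and 2 higher than DMSO at 4 h, 1 was lower without the block, and 22 had a higher effect at 24 h (4 without the block). Rgs4 at 4 h had 646, 753 and 835 normalized counts with DMF and 1465, 1236 and 1365 with DMSO, and its effect differed by 2.53 ± 0.17. Of 30 chaperone genes of the endoplasmic reticulum 21 were higher and 1 lower at 4 h, with a median of 0.40 that was -0.04 at 24 h, and 18 had a lower effect at 24 h (12 without the block). Calr at 4 h had 15107, 14875 and 14792 against 10601, 9739 and 10161, where every DMF library was the higher. Srebf1 had 1127, 1742 and 1433 at 4 h against 2047, 2868 and 2075, so that its change was -0.70 at 4 h and 1.22 at 24 h.

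Nfya and Cxcl12 changed at 4 h and were near the vehicle at 24 h. Nfya, the DNA-binding subunit of NF-Y, had 756, 675 and 636 normalized counts with DMF at 4 h against 1576, 1785 and 1848, and 1505, 1504 and 1772 at 24 h against 1566, 1644 and 1704. Cxcl12, a chemokine, had 312, 217 and 172 against 840, 783 and 540 at 4 h, and a log2 change of 0.04 at 24 h. Abcb1b did the reverse, with a change of -0.30 at 4 h that did not pass and of 2.37 at 24 h. Sterol genes were lower at both times, 19 of 24 at 4 h (10 without the block) and 17 at 24 h (11 without the block), and the effect differed for 4 of them.

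**Figure D5:**
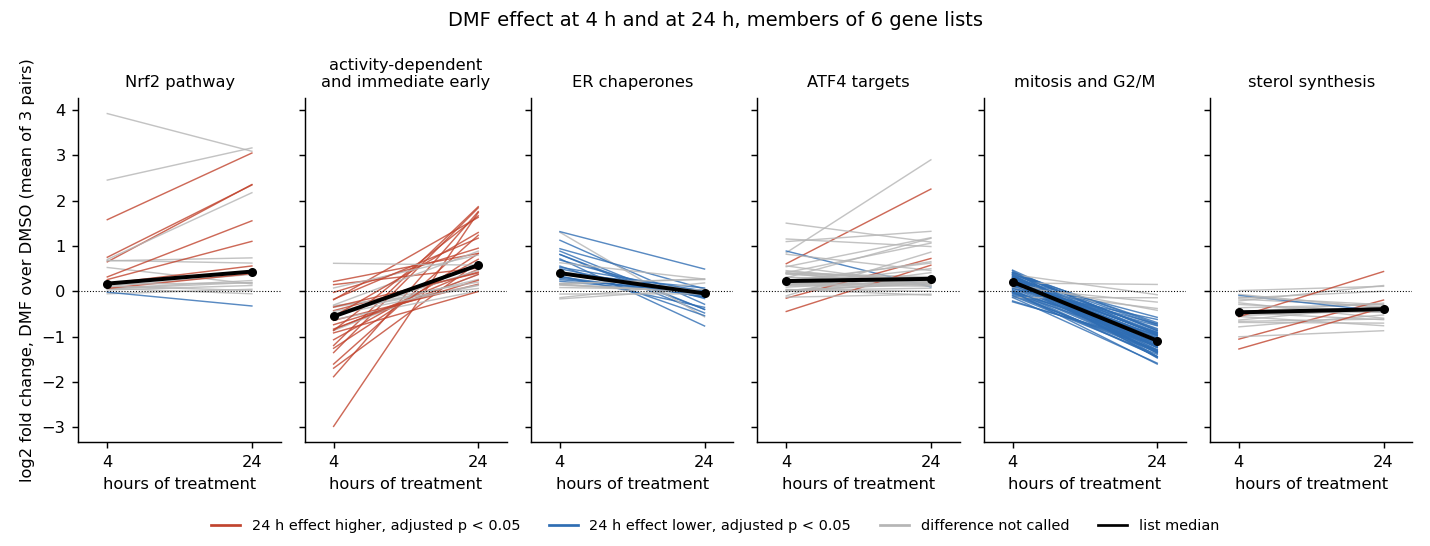
DMF effect of each member of 6 gene lists after 4 h and 24 h, as the mean log2 ratio of DMF to DMSO over 3 pairs; red and blue lines mark members whose effect was higher or lower at 24 h by the test of the difference, grey lines the others, and black lines the list medians. The activity-dependent list crosses from below 0 to above 0, and the mitosis list crosses the other way.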

How the data were processed

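Poly(A)+ RNA of 30 cultures was sequenced in pairs on a NovaSeq. Per the labels and the study's methods, the authors trimmed reads with cutadapt 4.4 and Trimmomatic 0.39 after FastQC 0.12.1, aligned them with HISAT2 2.2.1 to mRatBN7.2, counted genes with HTSeq 2.0.3 (the strand setting is not given in the sources used here) and normalized them with DESeq2 1.40.2. The deposited signal is the count divided by a size factor, in a table for each pair of groups. Of 19 such tables, 9 were used. They also hold the authors' own log2 fold changes, p-values and Wald scores for each comparison, which were not used. Values were whole multiples of a read for 100% of entries (tolerance 0.001), which gave the depths and the filter on low counts.

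Fits used R 4.3.3 and limma 3.58.1 on log2 of the normalized count plus 1, with the trend of the spread, the replicate number as a block, and p adjusted by Benjamini-Hochberg across every gene in the fit. The methods state no block. It was used because same-number libraries of DMF_24h and DMSO_24h correlated in their deviations from group means, at 0.274, 0.407 and 0.432. Other pairs lay at -0.333 to -0.027. In the comparison of 24 h with 4 h, same-number pairs lay at 0.139 to 0.592 and other pairs at -0.456 to 0.163. There the ranges overlapped, as DMSO_4h number 1 correlated at 0.139 with DMSO_24h number 1 and at 0.163 with number 2. The study's methods say that each experiment was repeated 3 times. They do not say whether the repeats came from separate animals or preparations, so p-values measure only the spread between these samples. Alternatives used edgeR 4.0.16 and DESeq2 1.42.0 on the recovered reads. On simulated data with 200 of 13967 genes changed by 1 on the log2 scale, limma with the block recovered 88.5% of them, and 7.81% of its calls were unchanged genes. Without the block these were 72% and 0%. The simulated counts were drawn from the blocked fit and so held its replicate effects. They cannot show whether the block suits the real data. Summaries used Python 3.11.15, pandas 2.3.3, NumPy 2.4.6, SciPy 1.17.1 and matplotlib 3.10.9. Intervals are limma's 95% intervals.

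Genes were named by rule: the 10 rising and the 10 falling genes with the smallest p and with the largest change among those that passed with and without the block, the 4 tested members of each list with the smallest p, genes the study names, and the 5 highest and lowest of the other comparisons. Others, such as Gclm, Keap1, Abcb1a, Ephx1, the mu class transferases, Olig1, Olig2, Mbp, Hes5, Map2, Rbfox3, Gad2, Egr1, Npas4, Insig1, Pcna and the mitosis genes that did not pass, were chosen after their values were seen. The members, lists and motifs were chosen with earlier results of these data known. Some results are not reported here.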

Additional observations from a re-analysis of the deposited data

Results flagged for a closer look

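The DMF effect differed between 24 h and 4 h for 1896 protein_coding genes by limma's test of the difference, and 80 of the 140 genes chosen by the naming rule were among them. The 23 given here are those named for the time comparison, those of the activity-dependent, chaperone, fatty acid and mitosis lists, and 3 Nrf2 targets. In 12 of these the effect was higher at 24 h. On the log2 scale the difference was 2.67 for Abcb1b, 2.53 for Rgs4, 1.92 for Srebf1, 1.85 for Nptx2 and 1.68 for Cxcl12. It was 1.37 for Scd, 1.29 for Nfya, 0.97 for Jun and 0.89 for Fasn, and among Nrf2 targets 1.71 for Nqo1, 1.24 for Gstp1 and 0.84 for Me1. In the other 11 the effect was lower at 24 h. Among division genes it was -1.79 for Top2a, -1.59 for Iqgap3, -1.47 for Arhgap11a, -1.33 for Cenpf, -1.31 for Aspm and -1.26 for Mki67. Among chaperones it was -1.29 for Hsp90b1, -1.21 for Pdia4, -1.09 for Calr and -0.69 for Pdia6, and it was -0.58 for Fabp7. Without the block Scd (adjusted p of 0.0797), Me1 (0.0587) and Fabp7 (0.277) did not pass.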

How the results depend on the processing

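The number of genes called depended most on the replicate block and on the libraries numbered 2. Without the replicate block, calls went from 1800 to 554 for DMF_24h against DMSO_24h, from 1737 to 505 for DMF_24h against MMF_24h, from 1896 to 591 for 24 h minus 4 h, from 3262 to 481 for DMF_4h and from 195 to 1 for MMF_24h against DMSO_24h. With DESeq2 and the block they were 1114 and 1124 for the first and second of these. Leaving out each numbered pair in turn gave 375 to 2864 calls against DMSO_24h, 890 to 2734 against MMF_24h and 554 to 1400 for 24 h minus 4 h. Leaving out 1 library at a time without the block gave 379, 233 and 1165 calls against DMSO_24h for the DMF libraries 1, 2 and 3, and 141, 229 and 267 for the DMSO libraries. The cause was not tested. For DMF_24h against DMSO_24h, edgeR with the block gave 1819, TMM scaling 1774, a pseudocount of 0.1 gave 1791, no filter on low counts 1816 and the spread from all 30 libraries 1774. For DMF_24h against DMSO_24h, no gene chosen by the naming rule and called with the block was reversed under these alternatives. The direction of other genes and of the other comparisons was not checked. With 3 pairs, small changes of low genes were not detectable.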
